A study of Mus musculus with 18 samples.

Results

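The genes described here are 45 immediate-early and stress response genes, chosen by symbol, of the 49585 genes in the Aire and Fezf2 count tables and the 21969 in the Chd4 table, and all 45 were found in all 3 tables. By role they were 9 AP-1 factors, 6 EGR and Nr4a factors, 4 Kruppel-like factors, 6 other immediate-early genes, 7 feedback regulators, 6 genes of growth arrest and stress signalling and 7 heat shock chaperones. RNA was sequenced from sorted mouse medullary thymic epithelial cells (mTECs), which present proteins of other tissues to developing T cells, in 18 libraries that formed 6 groups of 3. Mice labelled Aire KO were set against a wild-type (WT) group of their own, Fezf2 KO mice against a second WT group, and Chd4 cKO mice against Chd4 flox/flox controls. The Aire KO, Fezf2 KO and WT groups were C57BL/6. Both Chd4 groups were C57BL/6x129P2 and homozygous for floxed Chd4, and the cKO also carried Foxn1-Cre, whose recombinase acts in thymic epithelium from early in its development. Whether the Fezf2 knockout was conditional differs between the labels (KO) and the column names (cKO). Ages, sexes and deleted exons were not given in the sources used here. The controls are called Aire WT, Fezf2 WT and the Chd4 control below, and the libraries of a group A, B and C.

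Immediate-early genes are transcribed within minutes of a growth factor, calcium or stress signal, without new protein synthesis, through factors already bound at their promoters and enhancers such as serum response factor (SRF) and CREB. Many of them encode transcription factors of the AP-1, EGR, Nr4a and Kruppel-like families, while others shut the signal off again by removing phosphate from MAP kinases or by destroying short-lived mRNAs. Heat shock chaperones are induced through heat shock factor when proteins misfold. The same genes are known to respond to tissue dissociation and, in developing T cells, to antigen receptor signals. The sources used here give no time between dissection and lysis.

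Promoter sequences carry some of the sites through which these genes are switched on. RefSeq (GRCm38.p6) windows from 250 bases before to 50 bases after the start were matched for 36 of the 45 members. Those of 5 members are shown, for an AP-1 factor, an orphan nuclear receptor and 3 feedback regulators that were all higher in Chd4 cKO, each as the 250 bases before the start and 5′ to 3′, with motif matches in capitals. Fos lies at chr12:85473640-85473889, plus strand, Nr4a1 at chr15:101266596-101266845, plus strand, Dusp1 at chr17:26508473-26508722, minus strand, Btg2 at chr1:134079156-134079405, minus strand and Zfp36 at chr7:28379229-28379478, minus strand.
Fos: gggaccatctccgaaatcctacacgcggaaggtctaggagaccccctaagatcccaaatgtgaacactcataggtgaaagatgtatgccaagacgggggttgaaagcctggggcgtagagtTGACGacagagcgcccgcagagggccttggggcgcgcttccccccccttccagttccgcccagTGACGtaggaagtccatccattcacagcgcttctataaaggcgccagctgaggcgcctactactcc
Nr4a1: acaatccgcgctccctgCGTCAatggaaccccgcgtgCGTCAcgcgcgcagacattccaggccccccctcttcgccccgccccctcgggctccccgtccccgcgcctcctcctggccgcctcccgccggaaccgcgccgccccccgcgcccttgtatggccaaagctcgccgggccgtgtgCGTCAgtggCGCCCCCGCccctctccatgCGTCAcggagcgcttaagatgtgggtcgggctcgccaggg
Dusp1: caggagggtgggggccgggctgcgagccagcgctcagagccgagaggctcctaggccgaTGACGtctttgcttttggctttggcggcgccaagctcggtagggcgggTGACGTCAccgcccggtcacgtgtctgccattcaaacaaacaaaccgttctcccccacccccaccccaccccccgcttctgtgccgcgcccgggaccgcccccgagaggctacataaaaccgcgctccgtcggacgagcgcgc
Btg2: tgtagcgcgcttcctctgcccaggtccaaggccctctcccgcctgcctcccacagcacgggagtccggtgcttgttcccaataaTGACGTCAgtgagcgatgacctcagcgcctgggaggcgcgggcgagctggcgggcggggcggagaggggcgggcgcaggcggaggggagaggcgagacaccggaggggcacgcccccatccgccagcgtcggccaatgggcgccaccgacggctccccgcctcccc
Zfp36: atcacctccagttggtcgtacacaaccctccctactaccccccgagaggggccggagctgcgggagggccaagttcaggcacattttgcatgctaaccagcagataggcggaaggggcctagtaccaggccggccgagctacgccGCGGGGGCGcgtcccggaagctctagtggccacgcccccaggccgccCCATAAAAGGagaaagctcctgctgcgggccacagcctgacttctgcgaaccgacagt

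The capitals mark the cAMP response element TGACGTCA in Dusp1 and Btg2, its core TGACG on either strand in Fos, Nr4a1 and a second place in Dusp1, the EGR site GCGGGGGCG in Nr4a1 (read on the other strand) and Zfp36, and an SRF CArG box in Zfp36. Each motif was searched on both strands, and every full response element also holds the core. The full element was found in at least 1 window of 3 of the 36 members (8.33%), against 2.03% of all 27025 genes in the table. Its core was found in 20 members (55.6%) and in 23% of all genes. An EGR site (GCGTGGGCG or GCGGGGGCG) was present in 9 members (25%) and in 3.93% of all genes. A CArG box was present in 3 members, Dusp5, Egr2 and Zfp36 (8.33%), and in 1.81% of all genes. The share of members with an AP-1 site (TGACTCA or TGAGTCA), 2 of 36 (5.56%), was close to that of all genes at 5.95%. The heat shock element matched 1 member, Hsph1 (2.78%), against 0.662% of all genes, and the NF-kB site matched none of the 36, against 2.79%. These are matches of letters, not bound sites. Sites outside the windows or with other letters were not searched, so a gene without a match may still have the site. The 9 members without a window are Arc, Klf10, Hspa8, Egr3, Fosl1, Myc, Ier2, Hsp90aa1 and Egr1.

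**Figure D1:**
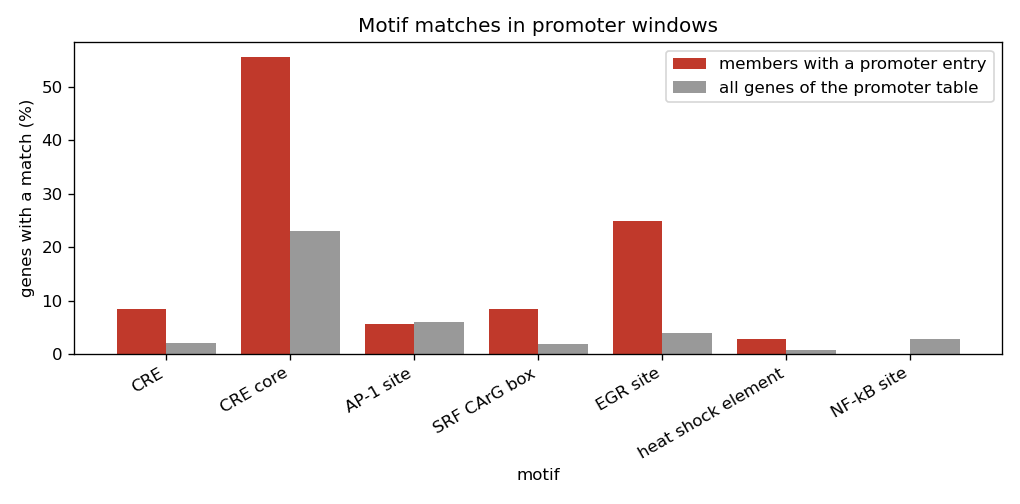
Share of genes with at least 1 match to each of 7 motifs in a promoter window of 300 bases, for the 36 members with an entry (red bars) and for all 27025 genes of the promoter table (grey bars), in percent. The core of the cAMP response element and the EGR site stand well above the grey bars, at 55.6 against 23.0% and 25.0 against 3.93%, while the AP-1 bars are close, at 5.56 and 5.95%.

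Exon reads per library ranged from 3571570 to 17220157, with library B of Chd4 cKO the deepest and no other above 6946014. Library B of Fezf2 WT stood apart from A and C of its group, with counts differing by a chi-square of 39.3 and 35.4 per degree of freedom, where pairs of the other groups gave 4.07 to 10.2. Fezf2 reads fell by 5.59 ± 0.41 on the log2 scale in Fezf2 KO and Chd4 reads by 1.14 ± 0.13 in Chd4 cKO. Aire reads were higher by 0.97 ± 0.11 in the libraries labelled Aire KO, against the label, and with the deleted exons unknown the count does not check it. All 11 mTEC markers were detected, and in Chd4 cKO Fezf2, Krt5 and Krt14 were higher and Aire, Krt8 and Foxn1 lower. In the libraries labelled Aire KO, Cd80, Fezf2 and H2-Aa were higher beside Aire, and Krt5 and Epcam lower. In Fezf2 KO Krt5 was higher and Fezf2 lower. The 12 Aire and Fezf2 libraries and the 6 Chd4 libraries came from separate sequencing runs, with different annotations, so levels are compared within a comparison only. In these bulk samples, fewer cells of a type and less RNA per cell cannot be told apart.

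Per exon length, the members covered a wide range of levels, and their order differed between groups. The inducible HSP70 genes Hspa1b and Hspa1a, whose near-identical sequences make the split of reads between them uncertain, averaged 2020.4 and 1376 RPKM in the libraries labelled Aire KO, 1776 and 1236 RPKM in Aire WT, 1511 and 964 RPKM in Fezf2 KO and 1424 and 854 RPKM in Fezf2 WT, the highest of all members in each. In the Chd4 groups the constitutive Hspa8 was highest, at 994 RPKM in the cKO and 1014 RPKM in the control. Among AP-1 factors Fos led in Chd4 cKO (608 RPKM), Fezf2 KO (442 RPKM) and Fezf2 WT (330.2 RPKM), Jun in the libraries labelled Aire KO (306 RPKM) and Aire WT (321 RPKM), and Junb in the Chd4 control (330.0 RPKM). In all 6 groups Gadd45b, Ier2, Egr1 and Klf6 were the highest of their roles, with means over the 18 libraries of 318, 203, 162 and 144 RPKM. Zfp36, which targets AU-rich mRNAs for decay, led the feedback regulators at 209 RPKM over the 18 libraries, except in Fezf2 KO, where Btg2 did. The lowest mean over the 18 libraries was that of Nr4a3 (0.596 RPKM). Means over the 18 libraries mix different annotations, in which 26 of the 45 members have the same exon length. Hspa8, for example, has 4301 bases for the Aire and Fezf2 libraries and 2554 for the Chd4 libraries. Exon length thus enters the levels of members such as Hspa8, and with them the order. Hspa1b and Hspa1a have the same length in both annotations, 2803 and 2967 bases. They averaged 515 and 487 RPKM in Chd4 cKO and 283 and 290 RPKM in its control. Strain and sequencing run also differ between the Chd4 groups and the others, and their part in the order was not tested. Together the 45 genes took 1.83, 1.38 and 1.98% of exon reads in Chd4 cKO, against 1.19, 1.37 and 1.2% in its control. Without the 7 chaperones the shares were 1.19, 0.772 and 1.12% in Chd4 cKO, against 0.648, 0.734 and 0.656% in the control. The 38 other genes thus took more reads in each cKO library than in any control library, by a small margin in library B.

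The comparison of Chd4 cKO with its control asks which mTEC transcripts depend on Chd4, an ATP-driven chromatin remodeller and core subunit of the NuRD complex. The members higher in the cKO were 9 transcription factors of the AP-1, EGR, Nr4a and Kruppel-like families, 5 feedback regulators and 6 other genes, from 1.33-fold for Sgk1 up to 3.85-fold for Nr4a1. Of 43 members tested, 20 were higher (46.5%, where 14.3% of all 15182 genes tested were) and 3 lower (6.98%, where 14.3% of all genes were), with 28.6% of all genes past the threshold in either direction. Nr4a3 and Egr3 did not pass the filter on low counts. The groups of libraries did not overlap in 19 members with a positive and 4 with a negative change, and in 44.3% of all genes, 22.1% in each direction. The median change of the 43 members was 0.47 on the log2 scale, and that of all genes 0.00. Values are CPM with TMM scaling, log2 fold changes carry their SE (n = 3 libraries per group), and p-values come from edgeR's quasi-likelihood test with Benjamini-Hochberg adjustment over all genes tested, with 0.05 as the threshold.

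**Figure D2:**
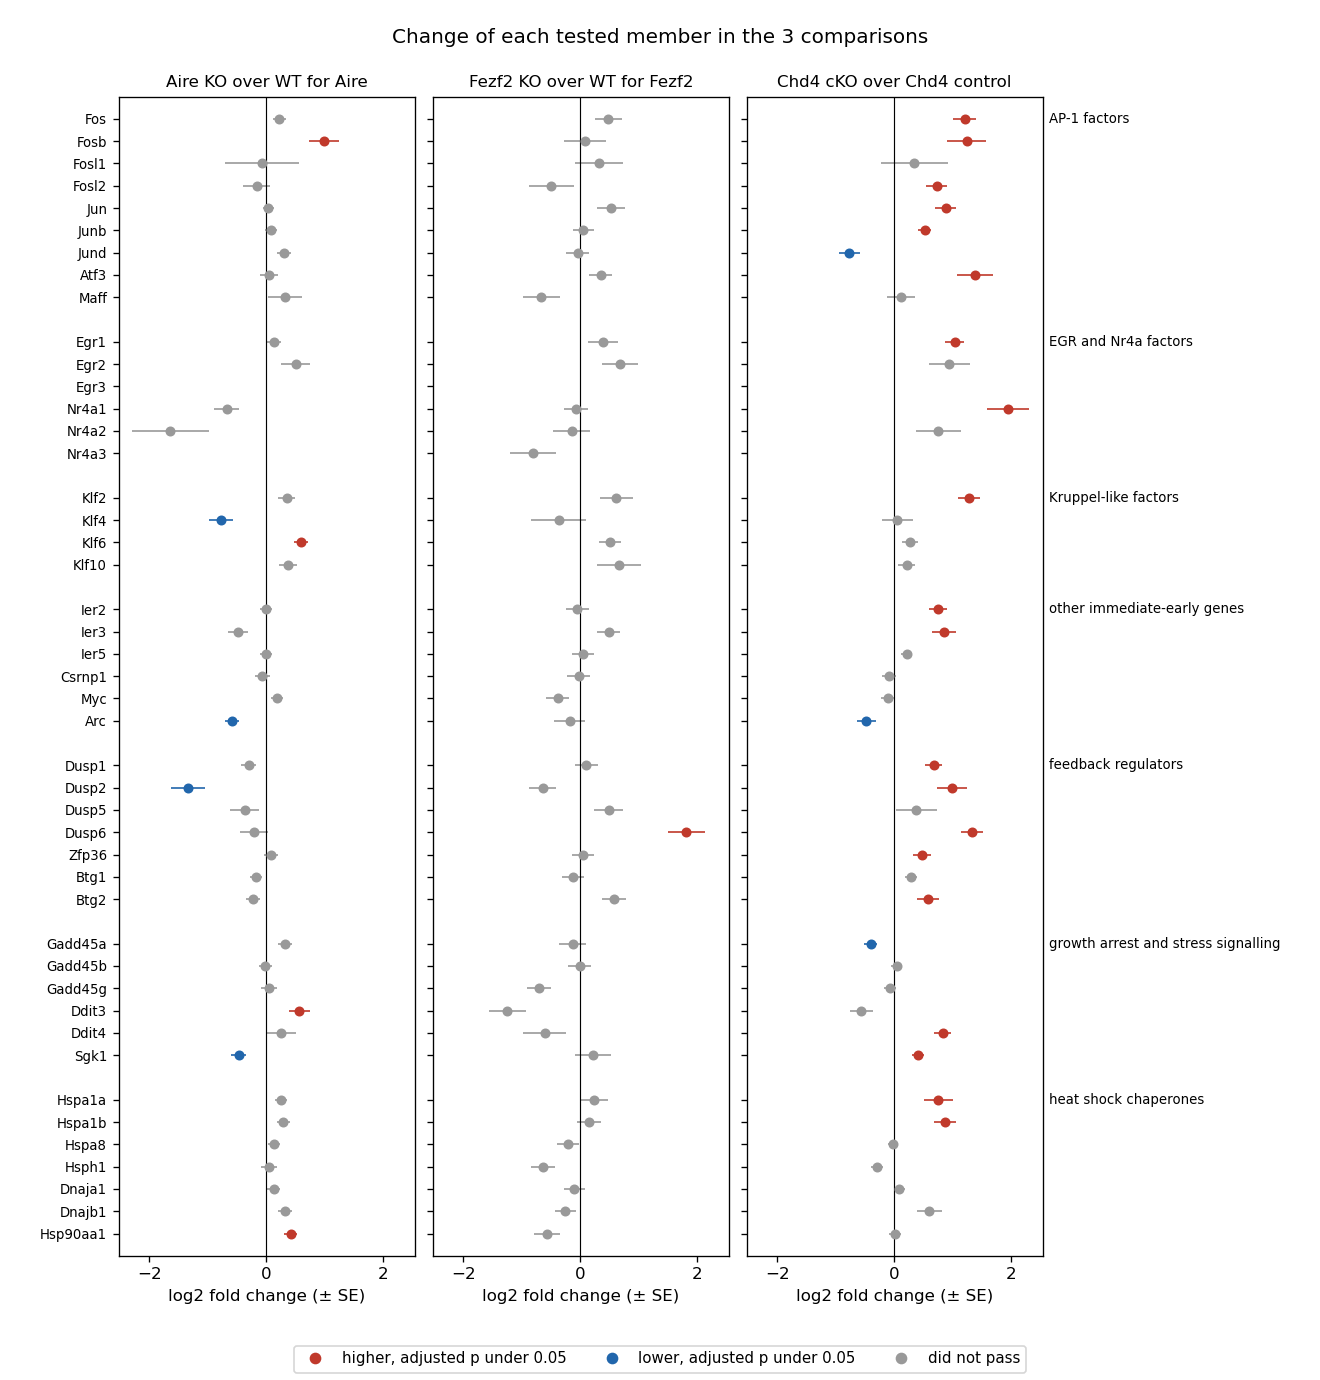
Log2 fold change (x axis, ± SE) of each tested member (rows, grouped by role) in 3 panels, libraries labelled Aire KO over their WT, Fezf2 KO over its WT and Chd4 cKO over its control, n = 3 libraries per group. Red and blue points passed the threshold as higher and lower, grey points did not, and missing points were not tested. Red points number 4, 1 and 20 in the 3 panels and blue points 4, 0 and 3.

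Among AP-1 factors, which bind DNA as dimers of Fos, Jun and ATF family proteins, 6 of 9 were higher in Chd4 cKO and 1 was lower. Fos had 1563, 847 and 1456 CPM in Chd4 cKO, against 502, 642 and 529 CPM in the control. All cKO libraries were above all controls, A and C by more than B (log2 fold change 1.21 ± 0.19, adjusted p = 0.00128). Fosb, a Fos relative, had 144, 56.2 and 141 CPM in Chd4 cKO, against 32.1, 61.3 and 48.8 CPM in the control. Library B of the cKO lay within the control range while A and C were far above it (log2 fold change 1.24 ± 0.33, adjusted p = 0.0183). Fosl2 had 31.2, 41.5 and 49.7 CPM in Chd4 cKO, against 22.8, 27 and 23.7 CPM in the control, with no overlap between the groups (log2 fold change 0.73 ± 0.18, adjusted p = 0.0126). Jun, the main partner of Fos, had 1551, 902 and 1595 CPM in Chd4 cKO, against 726, 760.2 and 715 CPM in the control, again with B nearest to the controls (log2 fold change 0.88 ± 0.17, adjusted p = 0.00413). Atf3, a factor of the ATF family induced by many stresses, had 371, 129 and 301 CPM in Chd4 cKO, against 83.6, 119 and 102 CPM in the control. Libraries A and C were high, and B was just above the highest control (log2 fold change 1.39 ± 0.31, adjusted p = 0.00742). Junb was also higher, at 873 ± 128 CPM in Chd4 cKO and 608 ± 27.9 CPM in the control (log2 fold change 0.52 ± 0.11, adjusted p = 0.00507). Jund, the Jun family member that is expressed in most resting cells, went the other way, with 215, 159 and 216 CPM in Chd4 cKO, against 382, 378 and 242 CPM in the control. The groups did not overlap, although control C was close to the cKO (log2 fold change -0.77 ± 0.18, adjusted p = 0.00863). The AP-1 genes that did not pass were Fosl1 (log2 fold change 0.35, adjusted p = 0.691) and Maff (0.12, adjusted p = 0.749). Jun, Junb, Jund and Atf3 overlap annotated genes on the opposite strand, and with strand handling not given, reads of those partners cannot be told apart from theirs.

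Of the EGR and Nr4a factors, 2 of 4 tested were higher. Nr4a1, the orphan nuclear receptor Nur77, had the largest change of all members, with 191, 58.1 and 101 CPM in Chd4 cKO, against 34.9, 25 and 30.6 CPM in the control. Each cKO library exceeded each control, and A stood far above B and C (log2 fold change 1.95 ± 0.36, adjusted p = 0.00296). Egr1, a zinc finger factor, had 1386, 851 and 1387 CPM in Chd4 cKO, against 552, 657 and 559 CPM in the control, with A and C nearly equal and B lower but above the controls (log2 fold change 1.03 ± 0.17, adjusted p = 0.00124). Egr2 had 106, 31.4 and 75.6 CPM in Chd4 cKO, against 36.3, 38.6 and 34.2 CPM in the control. Library B was below all controls, and the gene did not pass (log2 fold change 0.94 ± 0.35, adjusted p = 0.0662). Nr4a2 stayed low in both groups, at 6.66 ± 2.21 CPM in Chd4 cKO and 3.86 ± 0.819 CPM in the control, and did not pass (log2 fold change 0.76 ± 0.38, adjusted p = 0.161). Klf2, a zinc finger factor of quiescence and migration in lymphocytes and endothelium, was the 1 Kruppel-like gene of 4 to pass, with 69.3, 46.3 and 67.4 CPM in Chd4 cKO, against 27.6, 26.7 and 20.8 CPM in the control. The groups did not overlap (log2 fold change 1.28 ± 0.18, adjusted p = 0.000652). Klf6, Klf10 and Klf4 had log2 fold changes of 0.27, 0.21 and 0.05, with adjusted p = 0.148, 0.302 and 0.904. Among the other immediate-early genes, Ier2, a nuclear regulator, had 657, 420.4 and 629 CPM in Chd4 cKO, against 318, 369 and 327 CPM in the control (log2 fold change 0.75 ± 0.15, adjusted p = 0.00438). Ier3, an apoptosis regulator, had 123, 65.3 and 79.9 CPM in Chd4 cKO, against 53.2, 50.7 and 44 CPM in the control (log2 fold change 0.86 ± 0.21, adjusted p = 0.0119). In both, B was the lowest cKO library and still above every control. Arc, best known for its part in synaptic plasticity, was lower, at 85.4 ± 17.3 CPM in Chd4 cKO and 118 ± 17.2 CPM in the control, with cKO A above the lowest control (log2 fold change -0.47 ± 0.15, adjusted p = 0.0413). Ier5, Csrnp1 and Myc did not pass (log2 fold changes 0.22, -0.09 and -0.11, adjusted p = 0.113, 0.647 and 0.458).

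Of the feedback regulators, 5 of 7 were higher in Chd4 cKO. Dusp6, a cytoplasmic phosphatase that inactivates ERK, had 61.8, 44.7 and 48.6 CPM in Chd4 cKO, against 17.2, 17.6 and 26.6 CPM in the control. The lowest cKO library was well above the highest control (log2 fold change 1.33 ± 0.19, adjusted p = 0.000729). Dusp2, a nuclear MAP kinase phosphatase, had 30.9, 23.8 and 35.8 CPM in Chd4 cKO, against 18.6, 17.3 and 9.33 CPM in the control (log2 fold change 0.99 ± 0.25, adjusted p = 0.0143). Dusp1, which inactivates p38 and JNK, had 319, 225 and 288 CPM in Chd4 cKO, against 151, 201 and 168 CPM in the control (log2 fold change 0.67 ± 0.14, adjusted p = 0.0055). Neither overlapped between the groups. Zfp36 was at 993 ± 222 CPM in Chd4 cKO and 716 ± 100.1 CPM in the control (log2 fold change 0.47 ± 0.16, adjusted p = 0.0455), and Btg2, an antiproliferative factor that promotes mRNA deadenylation, at 444 ± 152 CPM in Chd4 cKO and 297 ± 8.14 CPM in the control (log2 fold change 0.58 ± 0.19, adjusted p = 0.0433). In both, cKO library B was near the controls, and in Zfp36 it was within their range. Btg1 and Dusp5 did not pass (log2 fold changes 0.29 and 0.38, adjusted p = 0.0565 and 0.462).

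Stress signalling and chaperone genes were mixed. Ddit4, an inhibitor of mTORC1, had 45.7, 42.1 and 55.7 CPM in Chd4 cKO, against 29.5, 25 and 25.8 CPM in the control, with no overlap and with library B close to A (log2 fold change 0.83 ± 0.15, adjusted p = 0.00232). Sgk1, a kinase induced by serum and glucocorticoids, was at 123 ± 9.59 CPM in Chd4 cKO and 93.1 ± 5.15 CPM in the control (log2 fold change 0.41 ± 0.10, adjusted p = 0.0107). Here B was the highest cKO library. Gadd45a, a growth arrest gene and p53 target, was lower at 65.2 ± 7.71 CPM in Chd4 cKO and 85.9 ± 3.04 CPM in the control (log2 fold change -0.40 ± 0.11, adjusted p = 0.0209). Ddit3, the stress factor CHOP, did not overlap between the groups and did not pass (log2 fold change -0.56 ± 0.19, adjusted p = 0.0531). Gadd45b and Gadd45g had log2 fold changes of 0.04 and -0.07 (adjusted p = 0.776 and 0.635). Of the 7 chaperones 2 were higher. Hspa1b had 1262, 1101 and 1995 CPM in Chd4 cKO, against 699, 915 and 766 CPM in the control, and the groups did not overlap (log2 fold change 0.87 ± 0.19, adjusted p = 0.00674). Hspa1a had 1314, 992 and 2052 CPM in Chd4 cKO, against 874, 1080.0 and 628 CPM in the control, with cKO library B below control B (log2 fold change 0.75 ± 0.24, adjusted p = 0.0401). Their promoter windows are identical at 296 of 300 bases, and reads of their shared sequence cannot be assigned with certainty. Dnajb1, the HSP40 partner of HSP70, had a log2 fold change of 0.60 (adjusted p = 0.0598). The abundant constitutive Hspa8, the HSP90 gene Hsp90aa1, Dnaja1 and Hsph1 were at -0.02, 0.01, 0.09 and -0.29, with adjusted p = 0.876, 0.939, 0.522 and 0.0665.

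The cKO libraries were not alike. Library B was the lowest of its group in 18 of the 20 members called higher and was above the highest control in 17 of them, whereas A and C were above it in all 20. Over those 20 members the median log2 excess over the control mean was 1.05 in A, 0.44 in B and 1.18 in C. Over all 43 tested members it was 0.62 in A, 0.11 in B and 0.66 in C, and it ran from -0.05 to 0.10 in the control libraries, so B was just above the highest control. Library B was also the deepest. With the 6 libraries thinned to equal depth, 22 members were higher, 20 of them the same. Without library B 24 were higher, including all 20, and without cKO library A, cKO library C or control library A 16 were, each time without Btg2, Fosb, Hspa1a and Zfp36. Btg2 and Zfp36 also lost the call without control B or C, and Hspa1a without control C. Of the lower calls, Arc was lost without cKO B or C or control A or B, and Gadd45a without cKO B or C or control B or C. Thymocyte markers summed to 92 to 122 CPM in Chd4 cKO and 92.5 to 121 CPM in the control, and 0 of 13 tested passed. Myeloid and dendritic cell markers summed to 569 to 731 CPM in Chd4 cKO and 1053 to 1253 CPM in the control, with Lyz2, Adgre1 and Flt3 of 6 tested lower. Sums for B cell markers were 100.1 to 121 CPM in Chd4 cKO and 74 to 86.9 CPM in the control (Cd79b higher and Cd22 lower of 7 tested), for fibroblast markers 303 to 314 CPM in Chd4 cKO and 249.8 to 313 CPM in the control (Lum higher, Col1a1 and Col3a1 lower of 6), for cortical epithelial markers 535 to 946 CPM in Chd4 cKO and 736 to 1009 CPM in the control (Ly75 higher and Ccl25 lower of 7) and for endothelial markers 21.4 to 21.7 CPM in Chd4 cKO and 22.5 to 27.5 CPM in the control (0 of 2 passed). No marker of these lists was at 0 in all 6 libraries. The part of these cells in the changes was not tested. Reads of 4 Y-linked genes summed to 0.72, 0.232 and 0 CPM in Chd4 cKO, against 157, 0.99 and 0.479 CPM in the control, so control A alone had them at a high level. Without control A, 16 members were higher, as given above.

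**Figure D3:**
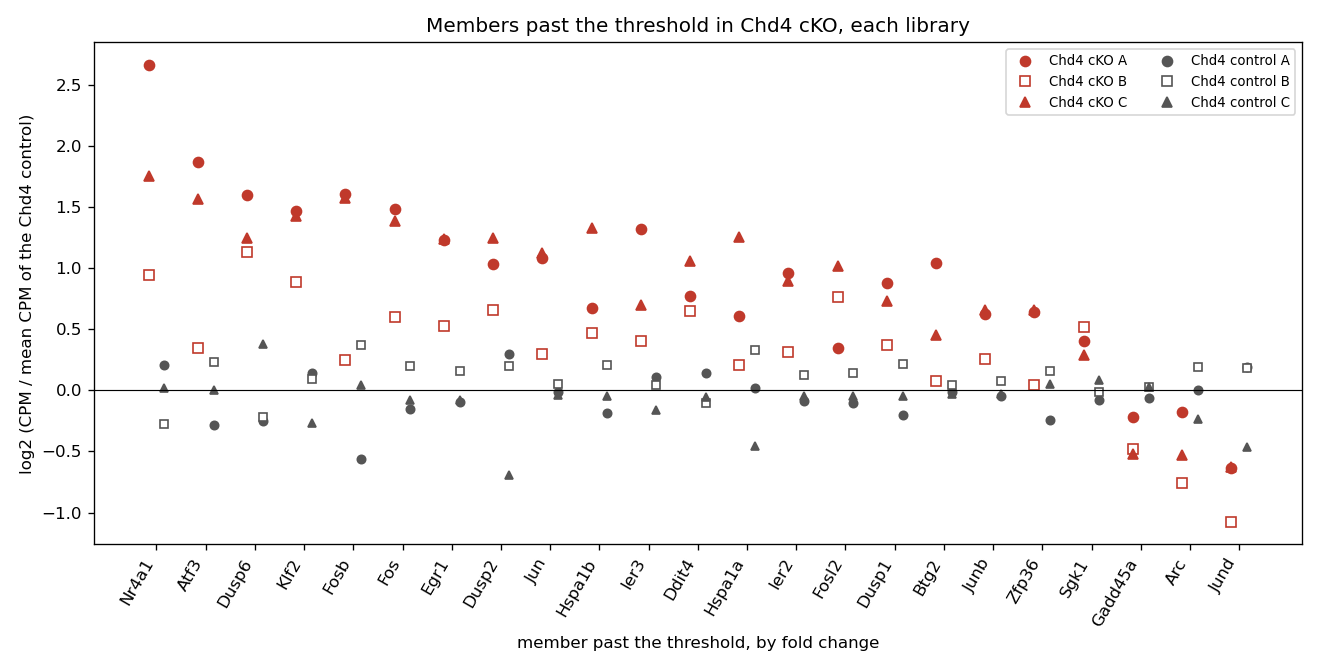
Log2 of CPM over the mean of the Chd4 control (y axis) for the 23 members past the threshold (x axis, from the largest positive to the largest negative change), with each Chd4 cKO library in red and each control library in grey. Open squares mark library B of either group, which in the cKO is the lowest of its group in 18 of the 20 members called higher.

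In the libraries labelled Aire KO, a comparison that asks which mTEC transcripts depend on Aire, changes among the members were few and went both ways. Of 43 tested (Egr3 and Nr4a3 were not), 4 were higher (9.3%, where 5.73% of all 14949 genes were) and 4 lower (9.3%, where 9.37% of all genes were), and 15.1% of all genes passed in either direction. The groups did not overlap in 8 members with a positive and 7 with a negative change, and in 32.1% of all genes. The median change was 0.05 on the log2 scale, and 0.00 over all genes. Fosb had 22.1, 18 and 15.6 CPM in libraries labelled Aire KO, against 9.89, 8.75 and 9.50 CPM in Aire WT. The groups did not overlap (log2 fold change 0.98 ± 0.25, adjusted p = 0.0189). Klf6, the most abundant Kruppel-like member, had 901, 831 and 772 CPM in libraries labelled Aire KO, against 638, 540.5 and 486 CPM in Aire WT, again with no overlap (log2 fold change 0.59 ± 0.12, adjusted p = 0.0046). Ddit3 was higher at 36.2 ± 4.98 CPM in libraries labelled Aire KO and 24.4 ± 0.547 CPM in Aire WT (log2 fold change 0.56 ± 0.18, adjusted p = 0.0482), and Hsp90aa1 at 1316 ± 146 CPM in libraries labelled Aire KO and 985 ± 73.1 CPM in Aire WT (log2 fold change 0.42 ± 0.11, adjusted p = 0.0241). Among members past the threshold Dusp2 was the most reduced, with 15.5, 12 and 5.91 CPM in libraries labelled Aire KO, against 28.5, 29.2 and 27 CPM in Aire WT. Controls were tightly grouped and library C of the Aire KO was the lowest of all (log2 fold change -1.34 ± 0.29, adjusted p = 0.00651). Klf4, a factor of epithelial differentiation, had 26.9, 18.2 and 21.5 CPM in libraries labelled Aire KO, against 33.1, 46.7 and 34.5 CPM in Aire WT (log2 fold change -0.78 ± 0.21, adjusted p = 0.0222). Arc was lower at 138 ± 16.6 CPM in libraries labelled Aire KO and 206 ± 14.9 CPM in Aire WT (log2 fold change -0.58 ± 0.12, adjusted p = 0.00445), as was Sgk1 at 60.3 ± 5.10 CPM in libraries labelled Aire KO and 83.6 ± 4.46 CPM in Aire WT (log2 fold change -0.47 ± 0.13, adjusted p = 0.0223). The most abundant AP-1 and EGR genes did not pass. Fos, Jun and Egr1 had log2 fold changes of 0.22, 0.03 and 0.12 (adjusted p = 0.219, 0.87 and 0.568). Nr4a1 had 36.4, 37.1 and 26.2 CPM in libraries labelled Aire KO, against 72.1, 45.1 and 42.3 CPM in Aire WT, with no overlap, and narrowly missed the threshold (log2 fold change -0.68 ± 0.22, adjusted p = 0.054). Nr4a2 had 0.952, 3.001 and 0.473 CPM in libraries labelled Aire KO, against 2.62, 4.49 and 7.12 CPM in Aire WT. The groups overlapped at these low levels, and the gene did not pass (log2 fold change -1.64 ± 0.65, adjusted p = 0.117). All 7 chaperones had positive changes, from 0.05 to 0.42, and Hsp90aa1 alone passed. Apart from Nr4a1, the other members that did not pass had adjusted p between 0.0921 and 0.975. Myeloid and dendritic cell markers summed to 1024 to 1656 CPM in libraries labelled Aire KO and 968 to 1202 CPM in Aire WT (Adgre1, Csf1r and C1qa lower of 5 tested), thymocyte markers to 80.00 to 136 CPM in libraries labelled Aire KO and 70.4 to 158 CPM in Aire WT (0 of 14 passed) and fibroblast markers to 351 to 448 CPM in libraries labelled Aire KO and 219 to 266 CPM in Aire WT (2 higher and 4 lower of 6). Endothelial markers summed to 44.8 to 52.4 CPM in libraries labelled Aire KO and 19.5 to 26.3 CPM in Aire WT, with 1 higher. B cell markers had 1 higher and cortical epithelial markers 2 lower. Their part was not tested. Y-linked reads were 0.457, 182 and 205 CPM in libraries labelled Aire KO, against 188, 12.6 and 206 CPM in Aire WT, so both groups were mixed. Dusp2 and Klf6 passed under all 11 alternatives, while Arc, Fosb, Hsp90aa1, Klf4, Sgk1 and Ddit3 lost the call in the fit of all 18 libraries. Fosb also lost it without KO library A or WT library B or C, Klf4 without KO B or WT B, Hsp90aa1 without KO C or WT B, and Sgk1 without KO A or WT A or C. Ddit3 lost it without any of the libraries except KO B, and in 9 alternatives in all.

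In Fezf2 KO, a comparison that asks which transcripts depend on the zinc finger factor Fezf2, the feedback phosphatase Dusp6 was the 1 member of 44 tested to pass (2.27%, where 2.48% of all 15695 genes were higher and 4.87% passed in either direction). Dusp6 had 91.6, 105 and 143 CPM in Fezf2 KO, against 37.5, 18.1 and 40.4 CPM in Fezf2 WT. Each KO library was far above each WT library (log2 fold change 1.81 ± 0.31, adjusted p = 0.0107). Its call was lost without KO library B or C. None of the 44 was lower, where 2.4% of all genes were. At an unadjusted p under 0.05, 5 members were higher and 5 lower, where 8.72 and 10.5% of all genes were. DESeq2 called Ddit3 and Gadd45g lower beside Dusp6 higher, where it called 7.46% of all genes in either direction. The groups did not overlap in 9 members with a positive and 8 with a negative change, and in 27.5% of all genes. The median change was -0.02, against -0.03 over all genes. Ddit3 had 19.7, 15.2 and 21.1 CPM in Fezf2 KO, against 40.2, 65.5 and 27.4 CPM in Fezf2 WT, with no overlap but a wide spread in the WT (log2 fold change -1.25 ± 0.32, adjusted p = 0.0554). Gadd45g, a growth arrest gene, had 185, 198 and 221 CPM in Fezf2 KO, against 286, 402 and 297 CPM in Fezf2 WT (log2 fold change -0.70 ± 0.20, adjusted p = 0.0847). Fos, Jun and Egr1 had log2 fold changes of 0.48, 0.53 and 0.39 (adjusted p = 0.272, 0.263 and 0.439). Egr3 was not tested, and the adjusted p of the 43 members that did not pass ran from 0.0554 to 0.984. Library B of Fezf2 WT lay far from A and C in several members. Klf4 had 54.3, 47.7 and 75.7 CPM in Fezf2 KO, against 31.2, 148 and 50.6 CPM in Fezf2 WT, and Fosb had 29.4, 43.6 and 63.5 CPM in Fezf2 KO, against 29.98, 66.8 and 32.5 CPM in Fezf2 WT. In both, WT library B was the highest of all 6. Jun had 1357, 1232 and 1507 CPM in Fezf2 KO, against 1092, 643 and 1108 CPM in Fezf2 WT, and there WT library B was the lowest. Without that library, 5 members were higher (Dusp6 with Btg2, Ier3, Klf2 and Klf6) and 4 lower (Arc, Ddit3, Gadd45g and Hsph1), and 12.6% of all genes passed. Thymocyte markers summed to 211 to 267 CPM in Fezf2 KO and 429 to 796 CPM in Fezf2 WT, with 8 of 15 lower, and myeloid and dendritic cell markers to 587 to 863 CPM in Fezf2 KO and 952 to 1236 CPM in Fezf2 WT (0 of 6 passed). Cortical epithelial markers summed to 1450.3 to 2118 CPM in Fezf2 KO and 889 to 1263 CPM in Fezf2 WT (0 of 7 passed). Fibroblast markers summed to 233 to 307 CPM in Fezf2 KO and 151 to 218 CPM in Fezf2 WT, with Lum higher of 6 (log2 fold change 1.96 ± 0.33). The sums were 47.3 to 60.1 CPM in Fezf2 KO and 64.4 to 103 CPM in Fezf2 WT for B cell markers (0 of 6 passed), and 33.5 to 76.4 CPM in Fezf2 KO and 15.5 to 33.3 CPM in Fezf2 WT for endothelial markers (0 of 3 passed). The mTEC keratin Krt5 was also higher in Fezf2 KO (log2 fold change 1.51 ± 0.23). The part of these cells was not tested. Y-linked reads were between 0.228 and 1.61 CPM in all 6 libraries.

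**Figure D4:**
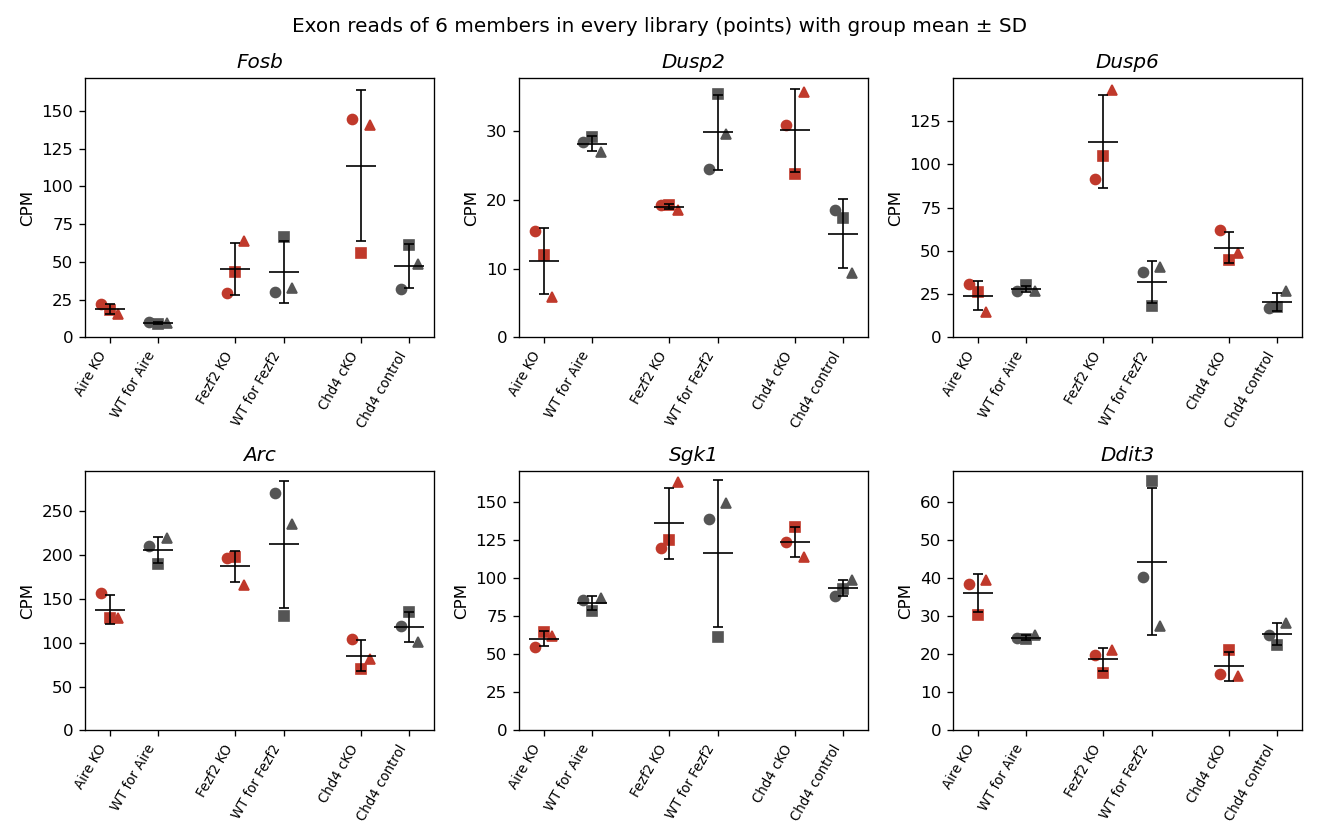
CPM (y axis, from 0) of Fosb, Dusp2, Dusp6, Arc, Sgk1 and Ddit3 in all 18 libraries (circles A, squares B, triangles C), with the mean and SD of each group of 3 (black), each KO or cKO group (red) left of its control (grey). Dusp6 is high in the 3 Fezf2 KO libraries at 91.6 to 143 CPM, and Dusp2 is low in the libraries labelled Aire KO at 5.91 to 15.5 CPM. The Chd4 libraries come from a separate run.

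The WT groups show how far these genes differed between groups of 1 labelled genotype and strain. In Fezf2 WT against Aire WT, 0 of 44 members passed, where 0.128% of all 15656 genes did (0.0958% higher and 0.0319% lower), and edgeR gave an unadjusted p under 0.05 for 13 higher and 1 lower, where 7.13% of all genes were higher and 4.81% lower at that level. DESeq2 called 3 of them, Dusp5, Fos and Fosb, higher, where it called 2.31% of all genes in either direction. The change was positive in 35 of 44 members, with a median of 0.30 against 0.03 over all genes, and the groups did not overlap in 14 with a positive and 2 with a negative change, where 20.4% of all genes did not overlap, 10.4% with a positive change. Fosb had 30.2, 67.4 and 32.8 CPM in Fezf2 WT, against 10.3, 9.15 and 9.91 CPM in Aire WT, no overlap and the lowest adjusted p (log2 fold change 2.14 ± 0.34, adjusted p = 0.0553). Fos had 862, 572 and 863 CPM in Fezf2 WT, against 461, 403 and 394 CPM in Aire WT, also without overlap (log2 fold change 0.87 ± 0.22, adjusted p = 0.139). Dusp5, a nuclear ERK phosphatase, had 30.8, 33.3 and 42.6 CPM in Fezf2 WT, against 17.3, 15.5 and 14 CPM in Aire WT (log2 fold change 1.19 ± 0.24, adjusted p = 0.0993). Each Fezf2 WT library was above each Aire WT library in these 3 genes. Without library B of Fezf2 WT, 9 members passed as higher, Atf3, Dusp1, Dusp5, Egr1, Egr2, Fos, Fosb, Ier2 and Sgk1, where 3.93% of all genes passed. Thymocyte markers summed to 433 to 803 CPM in Fezf2 WT and 73.5 to 165 CPM in Aire WT, with Dntt, Cd8a, Lck and Cd8b1 higher, and their part was not tested. Y-linked reads were 1.11, 0.241 and 0.254 CPM in Fezf2 WT, against 188, 12.6 and 206 CPM in Aire WT. The groups thus also differed in sex, and sex and group cannot be told apart here. This comparison shares libraries with those of Aire KO and Fezf2 KO.

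**Figure D5:**
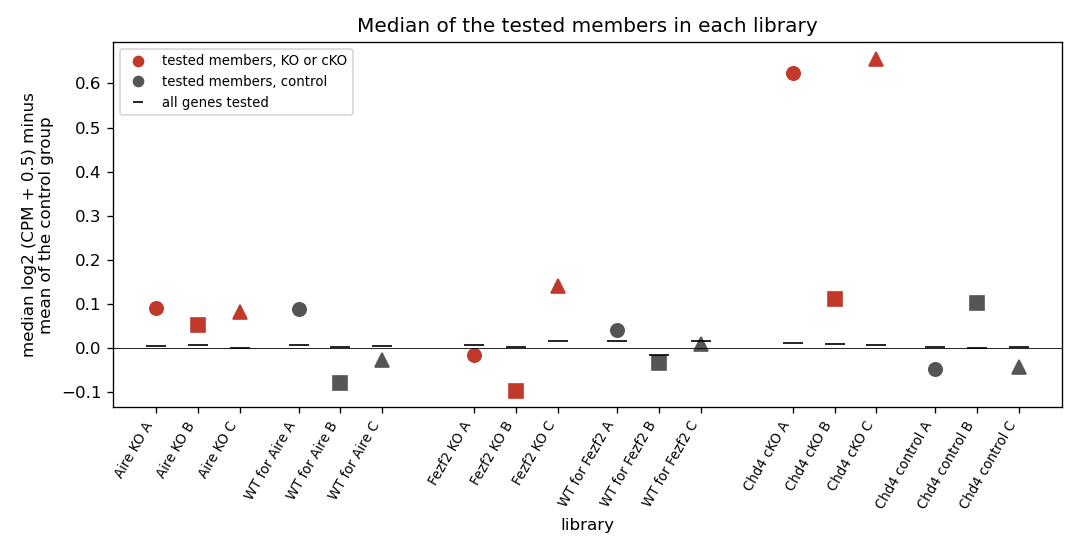
Median over the tested members of log2 (CPM + 0.5) minus the mean of the control group (y axis) in each of the 18 libraries (x axis), KO or cKO in red and controls in grey, with the median of all genes tested as a dash. Chd4 cKO libraries A and C stand at 0.62 and 0.66 and library B at 0.11, next to control library B at 0.10.

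Over the 3 knockout comparisons, which share no libraries, 27 of the 45 members passed in at least 1. The other 18 passed in none, and of these Egr3 was not tested in any. None passed in all 3 and 5 passed in 2. With Dusp6 the 1 member past the threshold in Fezf2 KO, at most 1 could have passed in all 3. Of all genes 15.1, 4.87 and 28.6% passed for Aire KO, Fezf2 KO and Chd4 cKO. How many of all genes passed in several comparisons was not counted. Arc was lower in both the libraries labelled Aire KO (-0.58) and Chd4 cKO (-0.47), and Fosb was higher in both (0.98 and 1.24). Dusp2 and Sgk1 were lower in the libraries labelled Aire KO (-1.34 and -0.47) and higher in Chd4 cKO (0.99 and 0.41), and Dusp6 was higher in both Fezf2 KO (1.81) and Chd4 cKO (1.33). Differences between the effects were tested as interaction contrasts over all 18 libraries, where 14.9% of all 16169 genes passed for Chd4 cKO minus Fezf2 KO, 16.5% for Chd4 cKO minus Aire KO and 16.9% for Fezf2 KO minus Aire KO. Of the 45 members, 8 passed in the first, all with a positive difference, 15 in the second (12 positive and 3 negative) and 8 in the last (3 positive and 5 negative). The differences are signed, so a positive one can also come from a negative change in the second knockout. For Gadd45g the changes were -0.07 in Chd4 cKO and -0.70 in Fezf2 KO, neither past the threshold alone. Leaving out each library and RLE scaling left 3 of 8, 6 of 15 and 3 of 8 of these calls in place throughout. Nr4a1 differed in both contrasts with Chd4 cKO, by 2.07 ± 0.43 from Fezf2 KO (adjusted p = 0.00248) and by 2.64 ± 0.44 from Aire KO (adjusted p = 0.000266). Dusp2 also differed in both, by 1.68 ± 0.39 (adjusted p = 0.00622) and 2.35 ± 0.40 (adjusted p = 0.00034). Fos and Egr1 passed against Aire KO, at 1.01 ± 0.28 (adjusted p = 0.0167) and 0.93 ± 0.29 (adjusted p = 0.0332), and missed against Fezf2 KO, at 0.77 ± 0.28 (adjusted p = 0.0693) and 0.68 ± 0.29 (adjusted p = 0.124). Both calls against Aire KO were lost on leaving out 1 library (highest adjusted p = 0.0565 for Fos and 0.0892 for Egr1), while those of Nr4a1 and Dusp2 held. The Chd4 groups also differ from the others in strain, sequencing run and annotation, and these cannot be told apart from the gene deleted. Exon length is the same in both annotations for 26 of the 45 members. Among members with a difference called against Aire KO, it differs for Jund, Ddit3 and Gadd45a, with a negative difference. It also differs for Fos, Dusp1, Dusp2 and Nr4a2, with a positive one. The lengths of Jund, Ddit3 and Gadd45a are 1668, 1713 and 1764 bases for the Aire and Fezf2 libraries and 2878, 890 and 1223 bases for the Chd4 libraries. Each fold change itself compares libraries counted on 1 annotation. For Dusp6 the log2 fold change in Fezf2 KO exceeded that in Aire KO by 2.003 ± 0.39 (adjusted p = 0.0011).

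Genes of neighbouring pathways were counted on 8 lists. Of all genes tested, 14.3% were higher and 14.3% lower in Chd4 cKO. In the libraries labelled Aire KO 5.73% were higher and 9.37% lower, and in Fezf2 KO 2.48% were higher and 2.4% lower. A count near these shares is no result about its list. Genes upstream of the members, which encode SRF, CREB and MAP kinase components, counted 1 higher and 2 lower of 22 in Chd4 cKO, 1 higher and 3 lower of 22 in the libraries labelled Aire KO and 1 higher and 1 lower of 22 in Fezf2 KO. Elk3, a ternary complex factor that binds with SRF, was higher in Chd4 cKO, at 54.1 ± 4.01 CPM in Chd4 cKO and 38.2 ± 2.57 CPM in the control (log2 fold change 0.50 ± 0.12, adjusted p = 0.0103). It was also higher in the libraries labelled Aire KO, at 79.2 ± 10.5 CPM in libraries labelled Aire KO and 48.7 ± 12.3 CPM in Aire WT (log2 fold change 0.70 ± 0.18, adjusted p = 0.0199), and in Fezf2 KO, at 65.5 ± 9.18 CPM in Fezf2 KO and 35.6 ± 4.74 CPM in Fezf2 WT (log2 fold change 0.88 ± 0.21, adjusted p = 0.0439). Map2k6, a kinase that activates p38, was lower in Chd4 cKO, at 9.66 ± 0.531 CPM in Chd4 cKO and 19.3 ± 5.50 CPM in the control (log2 fold change -0.999 ± 0.23, adjusted p = 0.00891). It was also lower in Fezf2 KO (log2 fold change -1.15 ± 0.27, adjusted p = 0.0361). Further immediate-early genes counted 9 higher and 7 lower of 34 in Chd4 cKO, 2 higher and 4 lower of 33 in the libraries labelled Aire KO and 3 higher and 4 lower of 33 in Fezf2 KO. Egr4, an EGR factor, was among the higher in Chd4 cKO, at 12.3 ± 5.95 CPM in Chd4 cKO and 1.5 ± 0.572 CPM in the control (log2 fold change 2.95 ± 0.53, adjusted p = 0.00229), as was the cytokine signalling inhibitor Socs3, at 366 ± 83.8 CPM in Chd4 cKO and 167 ± 7.12 CPM in the control (log2 fold change 1.13 ± 0.15, adjusted p = 0.000404). The factor Maf was lower, at 4.37 ± 0.178 CPM in Chd4 cKO and 15.7 ± 2.14 CPM in the control (log2 fold change -1.84 ± 0.24, adjusted p = 0.000339). Cxcl1, a neutrophil chemokine, was lower in the libraries labelled Aire KO, at 41.5 ± 2.01 CPM in libraries labelled Aire KO and 103 ± 9.16 CPM in Aire WT (log2 fold change -1.31 ± 0.13, adjusted p = 2.44e-05), and in Fezf2 KO, at 81.8 ± 15.5 CPM in Fezf2 KO and 172 ± 24.6 CPM in Fezf2 WT (log2 fold change -1.07 ± 0.22, adjusted p = 0.0215). Further MAP kinase feedback genes counted 2 higher and 1 lower of 11 in Chd4 cKO, 2 higher and 0 lower of 11 in the libraries labelled Aire KO and 0 higher and 0 lower of 11 in Fezf2 KO. Dusp4, a nuclear MAP kinase phosphatase, was lower in Chd4 cKO, at 89.4 ± 9.19 CPM in Chd4 cKO and 196 ± 19.3 CPM in the control (log2 fold change -1.13 ± 0.11, adjusted p = 6.82e-05), opposite to Dusp1, Dusp2 and Dusp6 there, and it was higher in the libraries labelled Aire KO, at 379.9 ± 15.6 CPM in libraries labelled Aire KO and 254 ± 42.4 CPM in Aire WT (log2 fold change 0.58 ± 0.13, adjusted p = 0.00665).

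The shares of all genes just given apply to the remaining lists too. Further heat shock response genes counted 6 higher and 1 lower of 19 in Chd4 cKO, 0 higher and 1 lower of 19 in the libraries labelled Aire KO and 1 higher and 0 lower of 19 in Fezf2 KO. The small heat shock protein gene Cryab was higher in Chd4 cKO, at 179 ± 37.3 CPM in Chd4 cKO and 65.7 ± 14.2 CPM in the control (log2 fold change 1.45 ± 0.18, adjusted p = 0.000261), and lower in the libraries labelled Aire KO, at 31.3 ± 4.83 CPM in libraries labelled Aire KO and 51.2 ± 8.45 CPM in Aire WT (log2 fold change -0.71 ± 0.18, adjusted p = 0.017). Hspd1, the mitochondrial HSP60, was higher in Fezf2 KO, at 903 ± 66.1 CPM in Fezf2 KO and 479 ± 14.9 CPM in Fezf2 WT (log2 fold change 0.91 ± 0.18, adjusted p = 0.0179). Genes of the unfolded protein and integrated stress response, to which Ddit3 also belongs, counted 2 higher and 5 lower of 20 in Chd4 cKO, 4 higher and 0 lower of 20 in the libraries labelled Aire KO and 0 higher and 1 lower of 20 in Fezf2 KO. The chaperones of the endoplasmic reticulum Hspa5 and Hsp90b1 were lower in Chd4 cKO, Hspa5 at 1639 ± 106 CPM in Chd4 cKO and 2075 ± 78 CPM in the control (log2 fold change -0.34 ± 0.08, adjusted p = 0.00704). In the libraries labelled Aire KO Hsp90b1 was higher, at 2921 ± 72.4 CPM in libraries labelled Aire KO and 2070.1 ± 115 CPM in Aire WT (log2 fold change 0.50 ± 0.10, adjusted p = 0.00408), together with Ppp1r15a, which restores translation after stress, at 821 ± 56.6 CPM in libraries labelled Aire KO and 524 ± 68.2 CPM in Aire WT (log2 fold change 0.65 ± 0.12, adjusted p = 0.00204). Ppp1r15a was among the lower genes in Chd4 cKO. Among p53 targets the counts were 1 higher and 5 lower of 17 in Chd4 cKO, 2 higher and 3 lower of 17 in the libraries labelled Aire KO and 2 higher and 1 lower of 17 in Fezf2 KO. Cdkn1a, the cell cycle inhibitor p21, was lower in Chd4 cKO, at 108 ± 14.7 CPM in Chd4 cKO and 203 ± 10.9 CPM in the control (log2 fold change -0.90 ± 0.11, adjusted p = 0.000265). It was also lower in the libraries labelled Aire KO (log2 fold change -0.52 ± 0.12, adjusted p = 0.00914). Pmaip1, the apoptosis gene Noxa, was higher in Fezf2 KO, at 755 ± 77.3 CPM in Fezf2 KO and 173 ± 51.2 CPM in Fezf2 WT (log2 fold change 2.13 ± 0.25, adjusted p = 0.00185). Pmaip1 was among the lower genes in Chd4 cKO and in the libraries labelled Aire KO. Glucocorticoid response genes counted 4 higher and 1 lower of 9 in Chd4 cKO, 3 higher and 0 lower of 10 in the libraries labelled Aire KO and 0 higher and 0 lower of 10 in Fezf2 KO. Fkbp5, a co-chaperone of the glucocorticoid receptor, was higher in Chd4 cKO, at 140.1 ± 12.9 CPM in Chd4 cKO and 94.3 ± 11.9 CPM in the control (log2 fold change 0.57 ± 0.12, adjusted p = 0.00449), as was the metallothionein Mt1, at 464 ± 97.8 CPM in Chd4 cKO and 224 ± 61.6 CPM in the control (log2 fold change 1.05 ± 0.20, adjusted p = 0.00289). Mt1 was also higher in the libraries labelled Aire KO, at 931 ± 68.6 CPM in libraries labelled Aire KO and 426 ± 48 CPM in Aire WT (log2 fold change 1.13 ± 0.12, adjusted p = 3.14e-05). Oxidative stress response genes counted 1 higher and 3 lower of 9 in Chd4 cKO, 2 higher and 0 lower of 9 in the libraries labelled Aire KO and 0 higher and 0 lower of 9 in Fezf2 KO. Srxn1, sulfiredoxin, was lower in Chd4 cKO, at 101 ± 14.2 CPM in Chd4 cKO and 199 ± 9.72 CPM in the control (log2 fold change -0.97 ± 0.11, adjusted p = 0.000181). Median log2 fold changes of the 8 lists in Chd4 cKO lay between -0.18 and 0.14, against 0.47 for the members and 0.00 for all genes. That of the further immediate-early genes was 0.09. Members and lists were chosen with earlier results of these data known, so the contrast between them is not a test.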

How the data were processed

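Sorted mTEC RNA was purified (Maxwell 16) and amplified into cDNA libraries by SMART-seq v4, per the labels' protocols. The authors deposited counts of exon reads per gene and library from trimmed single Ion Torrent reads, per the file headers. The builds mm10 and GRCm38 and the tool DESeq2 (no version) come from the submitters' processing notes. Aligner, strand handling and treatment of multiply mapped reads: not given in the sources used here. A total of 216 further per-library columns were not used. Intron reads, planned as a second readout, were not used here, because only 1 read count column per library was mapped. This was a limit of the mapping, not of the data. A, B and C follow barcode order and are names only.

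The members and lists were chosen with earlier results of these data known. For each comparison, edgeR 4.0.16 (R 4.3.3) was run on the 6 libraries concerned (TMM, filterByExpr, quasi-likelihood F test, Benjamini-Hochberg over all genes, threshold 0.05). The SE of a log2 fold change was its size over the square root of F. CPM were rescaled in each comparison, so a WT library can differ slightly between them. RPKM used total exon reads and exon length. Library medians used CPM + 0.5. Y-linked reads were the summed CPM of Ddx3y, Uty, Kdm5d and Eif2s3y, a check added after seeing the data. Members past the threshold were all named, with each library's value from a log2 change of 0.585, and up to 4 genes per pathway list. Interaction contrasts joined the tables by gene ID (21875 shared). A total of 25 symbols turned into dates were restored. Alternatives were DESeq2 1.42.0, limma 3.58.1 with voom quality weights, RLE size factors, no filter, all 18 libraries in 1 fit, each library left out, and equal depth, the last added after seeing the data. On simulated counts, 45.3 to 55.1% of log2 changes of 1 and 98 to 100% of log2 changes of 2 were recovered. False calls were 4.2 to 6.37% of calls. All genes were simulated at the same spread, below that of the Fezf2 comparison (common biological coefficient of variation 0.279). The simulation thus does not cover the spread of the Fezf2 libraries. Of the members, 14 overlap another annotated gene. The labels do not say whether triplicates are separate animals, so the p-values reflect only how these libraries vary, which may be technical.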

Additional observations from a re-analysis of the deposited data

Results flagged for a closer look

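In 31 instances, over 22 of the members, the effects of 2 knockouts differed by an interaction contrast over the 18 libraries (edgeR's quasi-likelihood test, adjusted over all 16169 genes). For Chd4 cKO minus Fezf2 KO 8 of 45 members passed, where 14.9% of all genes did. For Chd4 cKO minus Aire KO 15 of 45 passed, where 16.5% of all genes did. For Fezf2 KO minus Aire KO 8 of 45 passed, where 16.9% of all genes did. Values are log2 differences ± SE, and the Chd4 libraries come from another sequencing run and strain than the others. Their reads were also counted on another annotation, in which Fos, Dusp1, Dusp2, Nr4a2, Jund, Ddit3 and Gadd45a, among others, have a different exon length. The log2 fold change in Chd4 cKO minus that in Fezf2 KO was positive in Atf3 (1.09 ± 0.36), Ddit4 (1.49 ± 0.42), Dnajb1 (0.90 ± 0.27), Dusp2 (1.68 ± 0.39), Fosl2 (1.27 ± 0.41), Gadd45g (0.67 ± 0.23), Ier2 (0.84 ± 0.22) and Nr4a1 (2.07 ± 0.43), with adjusted p from 0.00248 to 0.0492.

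The log2 fold change in Chd4 cKO minus that in the libraries labelled Aire KO was positive in Atf3 (1.36 ± 0.37), Btg2 (0.83 ± 0.26), Dusp1 (0.99 ± 0.23), Dusp2 (2.35 ± 0.40), Dusp6 (1.56 ± 0.40), Egr1 (0.93 ± 0.29), Fos (1.01 ± 0.28), Ier2 (0.78 ± 0.22), Ier3 (1.36 ± 0.29), Jun (0.86 ± 0.27), Nr4a1 (2.64 ± 0.44) and Nr4a2 (2.42 ± 0.70). It was negative in Ddit3 (-1.12 ± 0.36), Gadd45a (-0.70 ± 0.24) and Jund (-1.05 ± 0.26), with adjusted p over all 15 from 0.000266 to 0.0466. The log2 fold change in Fezf2 KO minus that in the libraries labelled Aire KO was positive in Btg2 (0.79 ± 0.26), Dusp6 (2.003 ± 0.39) and Ier3 (0.95 ± 0.29), and negative in Ddit3 (-1.84 ± 0.36), Gadd45g (-0.77 ± 0.22), Hsp90aa1 (-1.02 ± 0.24), Hsph1 (-0.72 ± 0.22) and Myc (-0.59 ± 0.19), with adjusted p from 0.00107 to 0.0448. Dusp2 and Nr4a1 were positive in Chd4 cKO (0.99 and 1.95) and negative in the libraries labelled Aire KO (-1.34 and -0.68, the latter not called). Ddit3 was negative in Fezf2 KO (-1.25) and in Chd4 cKO (-0.56), neither called. It was positive in the libraries labelled Aire KO (0.56), a call lost in 9 of 11 alternatives. Jund was negative in Chd4 cKO (-0.77) and at 0.30, not called, in the libraries labelled Aire KO. Gadd45g was at -0.07 in Chd4 cKO and -0.70 in Fezf2 KO, neither called.

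Calls that held on leaving out each library and with RLE scaling were Dusp2, Ier2 and Nr4a1 for Chd4 cKO minus Fezf2 KO (3 of 8). They were Dusp1, Dusp2, Dusp6, Ier3, Jund and Nr4a1 for Chd4 cKO minus Aire KO (6 of 15), and Ddit3, Dusp6 and Hsp90aa1 for Fezf2 KO minus Aire KO (3 of 8). All others were lost on leaving out at least 1 library, and Atf3, Fosl2 and Gadd45g in the first contrast also with RLE scaling.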

How the results depend on the processing

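In Chd4 cKO the count of members called higher stayed at 16 to 24 under every alternative run, and 15 of its 23 calls held under all 12. Of all genes tested, 7.29 to 14.4% were higher under these alternatives. With all 18 libraries in 1 fit, 1 member was lower there and 2375 genes passed, and leaving out 1 library gave 1 to 3 lower. In the libraries labelled Aire KO the fit of 18 libraries gave 1 higher and 2 lower, leaving out 1 library gave 1 to 4 higher and 3 to 6 lower, and without a filter on low counts 3466 genes passed. Of all genes 15.9% passed in either direction in that fit and 10.8 to 15.0% on leaving out 1 library. In Fezf2 KO, leaving out 1 library gave 0 to 5 members higher, 0 to 4 lower and 169 to 2034 genes. DESeq2 gave 2 lower and 1273 genes, no filter 1 lower and 1387 genes, limma-voom with quality weights 5 higher, 4 lower and 2500 genes, and the fit of 18 libraries 3 higher, 4 lower and 2169 genes. Between the WT groups, DESeq2 gave 3 members higher and 383 genes, and leaving out 1 library 0 to 9 higher and 0 to 636 genes. Effect differences, leaving out 1 library, gave 3 to 12 positive and 0 to 1 negative for Chd4 cKO minus Fezf2 KO (5 positive with RLE), 5 to 17 and 1 to 3 for Chd4 cKO minus Aire KO, and 1 to 4 and 2 to 5 for Fezf2 KO minus Aire KO. No call reversed, and the cause of each move was not tested. Tests on intron reads were not run. No paired analysis was possible because the columns carry a barcode and not the replicate number of the labels. Members under about 5 CPM, such as Nr4a2, Nr4a3, Egr3 and Fosl1, are limited by depth.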
